A study of Homo sapiens with 4 samples.

Results

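The genes of the proteasome were compared between MDA231-BR, the brain metastatic derivative MDA-MB-231Br, and MDA231-P, the parental breast cancer line MDA-MB-231. The members are the rows whose symbol is PSM followed by a letter from A to G and a number, leaving out pseudogenes, antisense RNAs and genes named after a subunit. They number 46 of 15275 gene symbols in the table, and all 46 passed the filter on low counts. By role, 14 encode the constitutive 20S core, 3 the immunoproteasome, 17 the 19S regulatory particle, 4 activators, 1 an inhibitor and 7 assembly factors. PSMA8 and PSMB11, variants of the core known from testis and thymus, were not analysed here.

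RNA-seq was made from 2 libraries of each line, both grown in DMEM with fetal bovine serum and without a treatment named in the labels. The depth, as reads on named genes, was 28107820 and 25835225 in MDA231-BR libraries A and B, and 30771290 and 27554570 in MDA231-P libraries A and B, the letters following column order. MDA231-BR is a single derivative line. The labels name no separate cultures behind the libraries, so the spread that the p-values rest on may be technical. Of 6 markers of basal, mesenchymal breast cancer cells, most were plentiful in both lines. VIM had 118095 and 119552 normalized reads in MDA231-BR and 42476 and 38423 in MDA231-P. Normalized reads are reads divided by a size factor of the library, the unit of all read values given here. CD44, AXL and EGFR were present in every library. CAV1 was lower in MDA231-BR, with 10799 and 9773 reads against 27966 and 27283 in MDA231-P. SPARC had 4541 and 4252 reads in MDA231-BR but only 33.3 and 48.5 in MDA231-P. Of 8 luminal markers, 7 had a row. ESR1, FOXA1 and CDH1 stayed at or below 26.5 reads, EPCAM and GATA3 at or below 398, whereas ERBB2 had 990.1 and 1233 reads in MDA231-BR and 1239 and 955 in MDA231-P. KRT19, also a luminal keratin, had 4375 and 3009 in MDA231-BR and 2624 and 3186 in MDA231-P. None of 6 leukocyte markers had a row. In bulk RNA, fewer cells expressing a gene and less RNA per cell cannot be told apart.

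The 20S core is a barrel of stacked rings, with alpha subunits guarding the entrance and beta subunits inside, of which PSMB5, PSMB6 and PSMB7 cut proteins. Interferon-gamma induces PSMB8, PSMB9 and PSMB10, which take the places of those catalytic subunits in newly built cores to form the immunoproteasome, and this form supplies peptides for display on HLA class I. The 19S regulatory particle recognises ubiquitin-tagged proteins, unfolds them with a ring of ATPases and feeds them into the core, and the dedicated chaperones PSMG1 to PSMG4 help the alpha ring to form. Proteasome genes are known to be raised together by the transcription factor NFE2L1, which binds antioxidant response elements in their promoters.

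The promoters of 5 members are shown, of which PSMG1 alone passed the main test between the lines described below. They are those of the immunoproteasome subunits, the activator subunit PSME2 and the chaperone PSMG1. They come from RefSeq on GRCh38.p14, which is not the build of the deposited table, and each runs 5′ to 3′ on the gene's own strand for 300 bases, from 250 before to 50 after the start of transcription. The PSMB8 window, one of 2 listed for that gene, is chr6:32843998-32844297 on the minus strand; the other, chr6:32844630-32844929, holds no match to the motifs searched and is not shown. PSMB9 is chr6:32853942-32854241 on the plus strand, PSMB10 chr16:67936801-67937100 on the minus strand, PSME2 chr14:24146561-24146860 on the minus strand and PSMG1 chr21:39183402-39183701 on the minus strand. Capitals mark matches, on either strand, to the antioxidant response element core TGACNNNGC, the interferon-stimulated response element core (GAAA, any 2 bases, GAAA), the gamma-activated sequence core TTCNNNGAA and the CCAAT box.
PSMB8: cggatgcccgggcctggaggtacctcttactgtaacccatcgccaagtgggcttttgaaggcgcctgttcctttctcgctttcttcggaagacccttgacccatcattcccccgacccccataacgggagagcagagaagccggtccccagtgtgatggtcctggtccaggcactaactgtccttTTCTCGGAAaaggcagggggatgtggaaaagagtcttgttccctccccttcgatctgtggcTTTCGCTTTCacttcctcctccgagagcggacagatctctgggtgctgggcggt
PSMB9: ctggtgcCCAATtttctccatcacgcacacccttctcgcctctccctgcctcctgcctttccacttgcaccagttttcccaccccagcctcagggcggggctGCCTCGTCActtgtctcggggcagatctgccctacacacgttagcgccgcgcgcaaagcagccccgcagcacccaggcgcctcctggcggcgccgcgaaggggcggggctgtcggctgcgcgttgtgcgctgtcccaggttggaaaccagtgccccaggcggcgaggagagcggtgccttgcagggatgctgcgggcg
PSMB10: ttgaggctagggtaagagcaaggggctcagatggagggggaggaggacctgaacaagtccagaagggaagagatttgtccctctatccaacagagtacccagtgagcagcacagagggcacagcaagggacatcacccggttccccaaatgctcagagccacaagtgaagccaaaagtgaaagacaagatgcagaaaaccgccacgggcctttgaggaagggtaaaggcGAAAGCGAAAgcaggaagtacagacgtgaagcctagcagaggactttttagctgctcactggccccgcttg
PSME2: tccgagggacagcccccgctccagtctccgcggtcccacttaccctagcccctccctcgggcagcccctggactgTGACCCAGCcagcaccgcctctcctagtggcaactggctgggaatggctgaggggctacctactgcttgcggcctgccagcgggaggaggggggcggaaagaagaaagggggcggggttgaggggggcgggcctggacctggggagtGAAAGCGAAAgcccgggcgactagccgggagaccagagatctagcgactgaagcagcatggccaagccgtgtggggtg
PSMG1: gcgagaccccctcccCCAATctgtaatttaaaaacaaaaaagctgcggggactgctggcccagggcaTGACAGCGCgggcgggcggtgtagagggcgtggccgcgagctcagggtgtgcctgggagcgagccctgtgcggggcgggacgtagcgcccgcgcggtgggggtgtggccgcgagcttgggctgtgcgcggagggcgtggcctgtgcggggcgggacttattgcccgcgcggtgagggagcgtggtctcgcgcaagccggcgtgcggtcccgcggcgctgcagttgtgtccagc

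A RefSeq promoter was found for 40 of the 46 members. The interferon-stimulated response element core was present in 7 of them (17.5%) and in 4.38% of the 27305 genes with a promoter. These 7 were PSMA4, PSMB4, PSMB8, PSMB10, PSME1, PSME2 and PSMG4, so this core stood in members with negative and with positive fold changes in the comparison between the lines. The antioxidant response element core was present in 15 members (37.5%) against 16.1% of all genes, the gamma-activated sequence core in 7 (17.5%) against 9.38%, and the CCAAT box in 19 (47.5%) against 39.7%. A match is a string of letters and not evidence of binding.

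Few proteasome genes passed the test between the lines, and the medians of the role groups lay on both sides of zero. By limma-trend with Benjamini-Hochberg adjustment over 14424 genes and a threshold of 0.05, 0 of 46 members were higher in MDA231-BR, where 8.61% of all tested genes were, and 1 member, PSMG1, was lower, where 5.80% of all tested genes were. The share of members called in either direction was 2.17%, against 14.4% of all tested genes. At an unadjusted p below 0.05 by limma there were 9 members in either direction (19.6%), against 31.8% of all tested genes. All 9 were lower in MDA231-BR. The share of all tested genes that were lower at this level was not computed. On reads recovered from the table, edgeR's quasi-likelihood test called 0 members higher and 1 lower, against 8.96% and 6.48% of all genes. DESeq2 called 0 members higher and 6 lower (PSMA4, PSMA7, PSMC2, PSMG1, PSMG2 and PSMG4), against 11.3% and 8.92% of all genes.

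The levels of both MDA231-BR libraries lay above those of both MDA231-P libraries for 11 members (23.9%), where 31.7% of all tested genes did so, and below them for 18 members (39.1%), against 29.7% of all tested genes. For the remaining 17 the lines overlapped. The median log2 fold change, MDA231-BR over MDA231-P on the log2(value + 1) scale, was -0.13 over the members and 0.01 over all tested genes. It was -0.47 for the 20S core, 0.50 for the immunoproteasome, -0.05 for the regulatory particle, 0.24 for the activators and inhibitor and -0.30 for the assembly factors. The summed normalized reads of all members were 205262 and 168053 in MDA231-BR and 202516 and 212574 in MDA231-P, so that MDA231-BR library B alone stood below the other libraries.

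**Figure D1:**
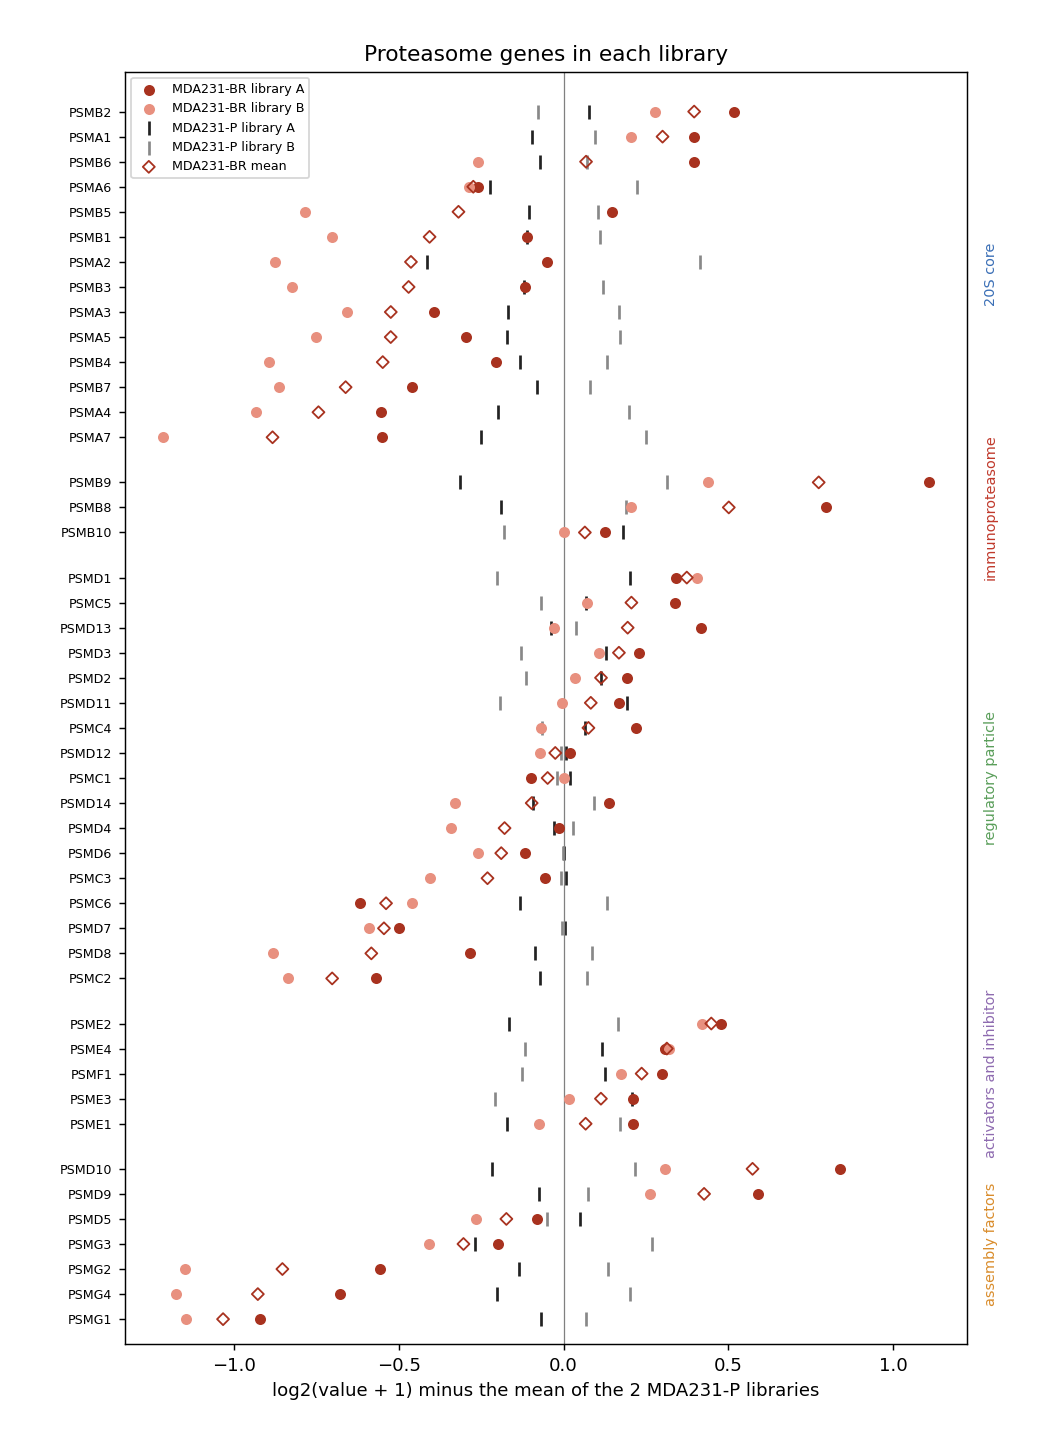
Log2 difference of each library from the mean of the MDA231-P libraries (x axis, log2(value + 1) scale) for the 46 members (y axis), grouped by role and ordered by fold change. Circles are MDA231-BR libraries A (dark) and B (light), diamonds their mean and vertical ticks the MDA231-P libraries; PSMG1 to PSMG4, most of the 20S core and PSMC2 lie left of zero, and PSMB9, PSMB8 and PSMD10 lie farthest to the right.

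Levels per kilobase of transcript spanned the members widely. PSMD2, the scaffold subunit of the base that docks ubiquitin carriers, ranked first in MDA231-BR with 8888 ± 683 normalized reads per kilobase, against 8227 ± 918 in MDA231-P (SD, n = 2 each). PSMA7, an alpha subunit, ranked first in MDA231-P, with 7344 ± 2349 in MDA231-BR and 13388 ± 3247 in MDA231-P. The lowest were PSMB10, PSMD9 and PSMA6 in both lines, with PSMB10 at 44.6 ± 2.75 in MDA231-BR and 42.9 ± 7.71 in MDA231-P. The rank of PSMA6 is uncertain, because 79.5% to 84.7% of the reads of PSMA6 and its pseudogenes stood in the pseudogene rows. Among the catalytic subunits, PSMB8 reached 1714 ± 491 per kilobase in MDA231-BR and 1196 ± 221 in MDA231-P, below PSMB5 with 2509 ± 1107 in MDA231-BR and 2981 ± 303 in MDA231-P.

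In the 20S core, 11 of 14 genes had a negative fold change, 8 lay below MDA231-P without overlap, 2 above it, and none passed the test. Over all tested genes, 29.7% lay below and 31.7% above without overlap. The alpha ring had the lowest median, -0.52 over 7 genes, with 5 of them below MDA231-P without overlap. PSMA7 had 8329.6 and 5257 normalized reads in MDA231-BR and 10259.6 and 14508 in MDA231-P. Both MDA231-BR libraries lay below both MDA231-P libraries, but each line's own libraries differed widely, and the log2 fold change of -0.88 ± 0.294 (SE) had an adjusted p of 0.0818 by limma. PSMA4 stood next, with 5023 and 3867 reads in MDA231-BR and 6424 and 8474 in MDA231-P (-0.74, adjusted p 0.0837 by limma). The exception in the alpha ring was PSMA1, with 3021 and 2650.2 reads in MDA231-BR and 2148 and 2457 in MDA231-P.

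The structural beta subunits, which form the ring without cutting, had a median log2 fold change of -0.44 over 4 genes, none past the test. PSMB1, the most abundant of them, had 6184 and 4108 reads in MDA231-BR and 6187 and 7213 in MDA231-P. PSMB4 had 5864 and 3635 reads in MDA231-BR and 6158 and 7401 in MDA231-P (-0.55 ± 0.278, adjusted p 0.215 by limma). For both genes MDA231-BR library A came close to MDA231-P and library B lay well under it. PSMB2 stood on the other side, with 6711 and 5686 reads in MDA231-BR and 4949 and 4450.4 in MDA231-P, without overlap. The gap between the 2 MDA231-BR libraries held for the whole core, whose summed reads were 62278 and 44163 in MDA231-BR and 64431 and 78902 in MDA231-P.

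PSMB8 and PSMB9 lay above MDA231-P in both MDA231-BR libraries, as 31.7% of all tested genes did, and PSMB10 did not. PSMB8, the immunoproteasome counterpart of PSMB5, had 2316 and 1537 reads in MDA231-BR and 1168 and 1520.0 in MDA231-P. The lower MDA231-BR library thus barely cleared the higher MDA231-P library, and the log2 fold change of 0.50 ± 0.279 (SE) had an adjusted p of 0.256 by limma. PSMB9, the counterpart of PSMB6, had 703 and 442 reads in MDA231-BR and 262 and 404 in MDA231-P (0.77 ± 0.338, adjusted p 0.158 by limma). PSMB10, the counterpart of PSMB7, was scarce, with 56.7 and 51.9 reads in MDA231-BR and 58.9 and 45.6 in MDA231-P, which overlap (0.06 ± 0.385). No difference in PSMB10 was detectable at this depth.

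Of the constitutive catalytic subunits, PSMB5, the chymotrypsin-like protease, had 3319.8 and 1741 reads in MDA231-BR and 2789.9 and 3222 in MDA231-P, with MDA231-BR libraries on both sides of MDA231-P. PSMB6, the caspase-like protease, had 3172 and 2015 reads in MDA231-BR and 2295 and 2534 in MDA231-P, again on both sides. PSMB7, the trypsin-like protease, had 4428 and 3345 reads in MDA231-BR and 5759 and 6430.3 in MDA231-P. It lay below MDA231-P without overlap, with a log2 fold change of -0.66 ± 0.235 and an adjusted p of 0.0977 by limma.

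Within a library, dividing each immunoproteasome subunit by its constitutive counterpart separated the lines in all 3 pairs. Single genes often separate the lines too, 31.7% of all tested genes upward and 29.7% downward. How often ratios of other gene pairs do so was not tested. PSMB8 over PSMB5 was 0.698 and 0.883 in MDA231-BR and 0.419 and 0.472 in MDA231-P, a mean of 0.790 ± 0.131 against 0.445 ± 0.0375 (SD, n = 2 each), or 1.77-fold higher. PSMB9 over PSMB6 was 0.222 and 0.219 in MDA231-BR and 0.114 and 0.160 in MDA231-P, 1.63-fold higher. The MDA231-BR libraries, which differed in both genes, nearly coincided in this ratio. PSMB10 over PSMB7 was 0.0128 and 0.0155 in MDA231-BR and 0.0102 and 0.00709 in MDA231-P, where the counts of PSMB10 overlapped between the lines and those of PSMB7 did not. The immunoproteasome subunits summed to 3076 and 2030 reads in MDA231-BR and 1489 and 1970 in MDA231-P. Their constitutive counterparts summed to 10920 and 7102 in MDA231-BR and 10844 and 12186 in MDA231-P. In MDA231-BR library A only the immunoproteasome sum stood apart from MDA231-P. In library B the constitutive sum lay well below MDA231-P, and the immunoproteasome sum barely above MDA231-P library B. Summed over the 3 pairs the ratio was 0.282 and 0.286 in MDA231-BR and 0.137 and 0.162 in MDA231-P, 1.90-fold higher. With 2 libraries against 2, the smallest two-sided p an exact permutation test can give is 0.333, which each of these ratios had, so none can pass the threshold.

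**Figure D2:**
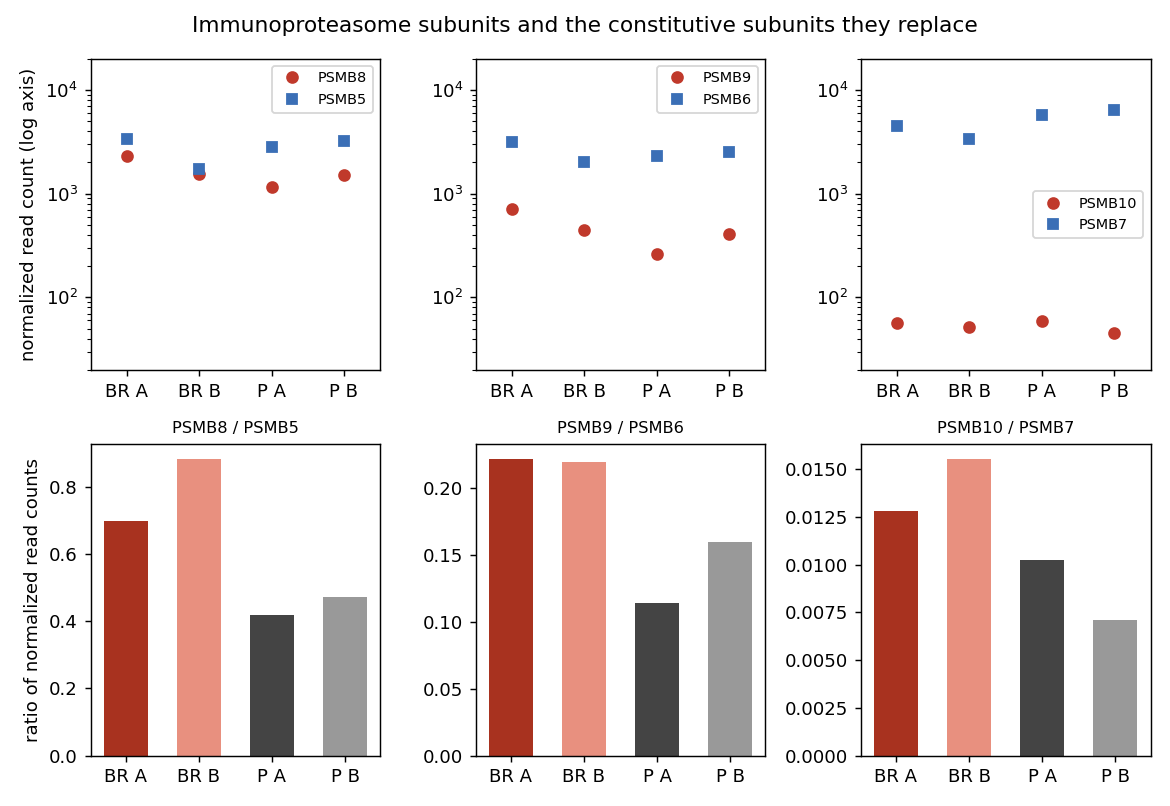
Upper row: normalized read counts (log axis) of each immunoproteasome subunit (red circles) and the constitutive subunit it replaces (blue squares) in MDA231-BR libraries A and B and MDA231-P libraries A and B. Lower row: their ratio in each library as bars; both MDA231-BR bars stand above both MDA231-P bars in every pair, at 0.698 and 0.883 against 0.419 and 0.472 for PSMB8 over PSMB5.

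The 17 genes of the 19S regulatory particle centred near zero, with 6 below MDA231-P without overlap, 2 above it, 9 overlapping and none past the test. Over all tested genes, 29.7% lay below and 31.7% above without overlap, so the count below is near that share. Among the 6 ATPases that unfold the substrate, PSMC2 had the most negative value, with 3787 and 3144 reads in MDA231-BR and 5345 and 5894 in MDA231-P. The libraries of each line lay close together and the lines did not overlap (-0.70 ± 0.223, adjusted p 0.0719 by limma). PSMC6 lay below MDA231-P without overlap too, with 3367 and 3751 reads in MDA231-BR and 4707 and 5659 in MDA231-P. PSMC3, the most abundant ATPase gene, had 5623 and 4414 reads in MDA231-BR and 5872 and 5818 in MDA231-P, whereas PSMC5 lay above MDA231-P, with 4686 and 3895 reads in MDA231-BR and 3885 and 3532 in MDA231-P. The ATPase subunits, which assemble one to one, thus held log2 fold changes between -0.70 and 0.21.

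Among the 11 non-ATPases of the particle the median log2 fold change was -0.03. PSMD2 was the most abundant proteasome gene, with 24674 and 22129 reads in MDA231-BR and 23372 and 19952 in MDA231-P, and the lines overlapped. PSMD8, a subunit of the lid, had the most negative value, with 4414 and 2916 reads in MDA231-BR and 5059 and 5710.5 in MDA231-P (-0.58 ± 0.26, adjusted p 0.167 by limma). PSMD14, the deubiquitinase that removes ubiquitin from the substrate, had 8704 and 6293 reads in MDA231-BR and 7427 and 8431 in MDA231-P, which overlap. PSMD1, a scaffold of the base, lay above MDA231-P with 7839 and 8192 reads in MDA231-BR and 7118 and 5372 in MDA231-P. The summed reads of the core divided by those of the regulatory particle were 0.610 and 0.497 in MDA231-BR and 0.639 and 0.819 in MDA231-P, so both MDA231-BR libraries were lower, library A only just. The MDA231-P libraries lay farther from each other than MDA231-BR library A lay from MDA231-P library A. This ratio was not corrected for transcript length, with which the gap between libraries varied, as described below.

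All 4 activators and the inhibitor had positive fold changes, 3 of the 5 without overlap, and none passed the test. Of all tested genes, 31.7% lay above MDA231-P without overlap. PSME1 and PSME2 form the interferon-inducible cap that opens the core without ubiquitin. PSME2 had 3141 and 3018 reads in MDA231-BR and 2013 and 2529.8 in MDA231-P (0.45 ± 0.228, adjusted p 0.217 by limma), so the MDA231-BR libraries lay close together and above both others. Its partner PSME1 had 3124 and 2563 reads in MDA231-BR and 2397 and 3043 in MDA231-P, which overlap. PSME3, which forms a cap in the nucleus, was the most abundant of the group, with 8531 and 7445 reads in MDA231-BR and 8504 and 6382 in MDA231-P. PSME4, a single-chain nuclear cap, had 7270.4 and 7338 reads in MDA231-BR and 6369.9 and 5423 in MDA231-P, without overlap. PSMF1, which blocks the core in vitro, had 2988 and 2742 reads in MDA231-BR and 2649 and 2227 in MDA231-P.

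The assembly factors held the only call. All 4 chaperones of the alpha ring had negative fold changes, with a median of -0.89. Of these, 3 lay below MDA231-P without overlap, where 29.7% of all tested genes did. PSMG1 fell to 1742 and 1493 reads in MDA231-BR, against 3146 and 3462 in MDA231-P. Its log2 fold change was -1.03 ± 0.223 (SE), with an adjusted p of 0.0214 by limma. The libraries of each line lay close together beside this gap, but the call needed both MDA231-P libraries: the adjusted p was 0.126 without MDA231-P library A and 0.222 without library B, with log2 fold changes of -1.10 and -0.96.

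PSMG2, with which PSMG1 forms a dimer, had 2884 and 1914 reads in MDA231-BR and 3861 and 4663 in MDA231-P (-0.85 ± 0.266, adjusted p 0.0686 by limma). PSMG4 had 388 and 274 reads in MDA231-BR and 540.1 and 715 in MDA231-P (-0.93, adjusted p 0.072 by limma), and its partner PSMG3 had 804 and 694 in MDA231-BR and 765 and 1111 in MDA231-P, which overlap. Summed, the 4 chaperones had 5817 and 4375 reads in MDA231-BR and 8312 and 9950.4 in MDA231-P. None of the 3 chaperones of the ATPase ring passed the test. PSMD10, known as the oncoprotein gankyrin, had 2866 and 1981 reads in MDA231-BR and 1378 and 1859.5 in MDA231-P (0.57 ± 0.275, adjusted p 0.194 by limma). PSMD5 had 3559.8 and 3127 reads in MDA231-BR and 3891 and 3638 in MDA231-P. PSMD9 had 461 and 368 reads in MDA231-BR and 291 and 322 in MDA231-P. Thus PSMD10 and PSMD9 lay above MDA231-P and PSMD5 below it, all without overlap. Over all tested genes, 31.7% lay above and 29.7% below in that way.

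The 2 MDA231-BR libraries did not give the proteasome genes the same level. MDA231-BR library B lay below library A for 42 of 46 members (91.3%), including 14 of 14 core genes and all 7 assembly factors, where 50.0% of all tested genes lay below. The median log2 difference, library B minus library A, was -0.28 over the members, with a range of -0.93 to 0.16. Set against the mean of MDA231-P, the 20S core had a median of -0.16 in MDA231-BR library A and -0.77 in library B, the chaperones PSMG1 to PSMG4 -0.62 and -1.15, and the immunoproteasome 0.80 and 0.21. The sign of these groups was thus the same in both libraries and the size was not. For the core, library A was close to MDA231-P library A, whose own median was -0.13. For the immunoproteasome, MDA231-BR library B was close to MDA231-P library B, whose own median was 0.19. Some other groups changed sign between MDA231-BR libraries A and B: the regulatory particle had 0.02 and -0.07, and the constitutive catalytic subunits 0.15 and -0.78. Over all 46 members the median was 0.00 for MDA231-BR library A and -0.26 for MDA231-BR library B.

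Counts of calls moved with the library left out. Without MDA231-BR library A, 0 members were higher, where 19.8% of all tested genes were, and 14 were lower (30.4%), where 16.7% of all tested genes were: PSMA2, PSMA4, PSMA5, PSMA7, PSMB1, PSMB3, PSMB4, PSMB5, PSMB7, PSMC2, PSMD8, PSMG1, PSMG2 and PSMG4. Without MDA231-BR library B, 3 were higher (6.52%, against 11.6% of all tested genes), namely PSMB8, PSMB9 and PSMD10, and PSMG1 alone was lower (2.17%, against 10.2%). No member passed without MDA231-P library A or without MDA231-P library B, where 2.92% and 2.97% of all tested genes did. In each such fit the lone library was assumed to vary like the other line.

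Library B of MDA231-BR also stood apart in other readouts. Reads on nuclear pseudogenes of mitochondrial genes made up 0.0560% of MDA231-BR library A and 0.174% of library B, against 0.0445% and 0.0457% of the MDA231-P libraries. The summed reads of 36 interferon-stimulated genes were 28718 and 125496 in MDA231-BR and 26806 and 28471 in MDA231-P, and those of 19 endoplasmic reticulum stress genes were 174341 and 521052 in MDA231-BR and 147379.7 and 143742 in MDA231-P. PSMB8 and PSMB9, interferon-inducible genes themselves, went the other way and were lower in library B than in library A. The part of these differences in the proteasome results was not tested.

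The gap between libraries varied with transcript length. Transcripts of the members ranged from 773 to 7099 nt with a median of 1426 nt. Over the 14 members of up to 1000 nt, the median log2 difference of library B minus library A was -0.52 in MDA231-BR and 0.33 in MDA231-P, and the median fold change between the lines was -0.50. For the 11 members over 2500 nt the same medians were -0.16, -0.23 and 0.11. All tested genes showed the same order, with -0.43, 0.37 and -0.37 over 2014 genes of up to 1000 nt and 0.19, -0.12 and 0.15 over 6720 genes of more than 2500 nt. The median library difference in MDA231-BR was thus negative for members of more than 2500 nt and positive for all tested genes of that length. Among these members, PSMC1, PSMD1 and PSME4 had positive differences, at 0.10, 0.064 and 0.013. Across the 46 members, Spearman's rho of length with these differences was 0.50 within MDA231-BR, -0.71 within MDA231-P and 0.29 between the lines, as a description over genes that share the same libraries.

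**Figure D3:**
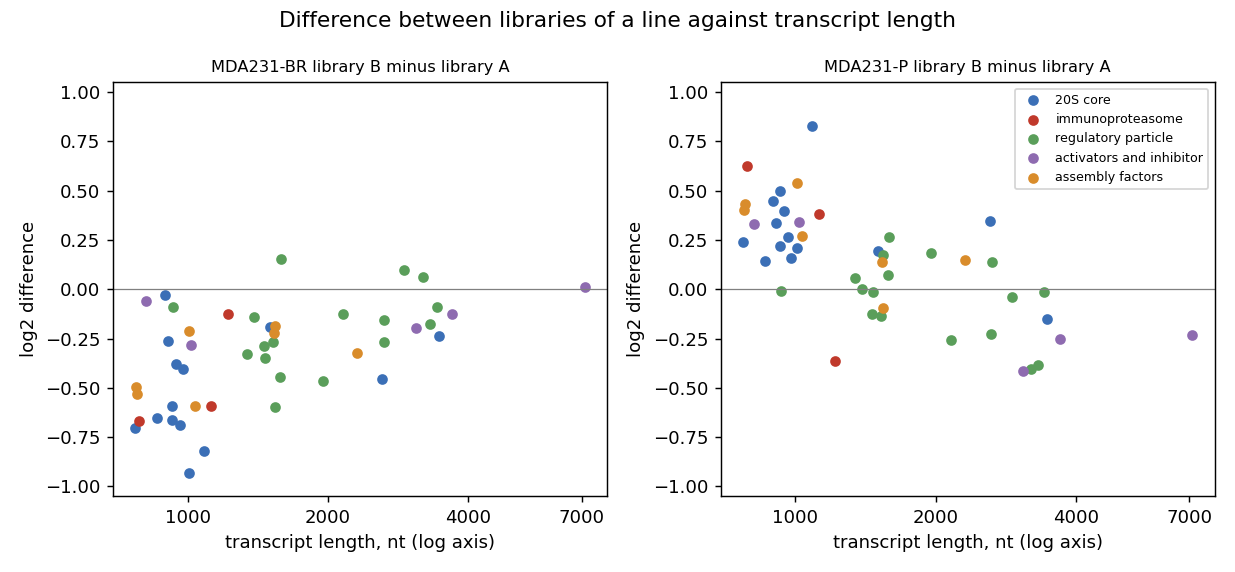
Log2 difference of library B minus library A (y axis) against transcript length in nt (x axis, log axis) for the 46 members, coloured by role, in MDA231-BR (left) and MDA231-P (right). Short transcripts lie below zero in MDA231-BR and mostly above zero in MDA231-P, with medians of -0.52 and 0.33 for the 14 members of up to 1000 nt.

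Each library was therefore also corrected for transcript length with a loess curve, an alternative chosen after seeing the data. By limma on the corrected values, 4 members were higher in MDA231-BR (8.70%, against 10.5% of the 14374 genes with a length) and 2 were lower (4.35%, against 8.90%). PSMB9 had a log2 fold change of 1.11 ± 0.237 (adjusted p 0.0146 by limma), PSMD10 0.91 ± 0.197 (0.0152), PSME2 0.77 ± 0.198 (0.0287) and PSMB8 0.71 ± 0.21 (0.0473). On the other side stood PSMG1, at -0.95 ± 0.187 (adjusted p 0.0109 by limma), and PSMC2, at -0.78 ± 0.207 (0.032). The 4 that were higher passed in at most 2 of 14 alternatives each, and their adjusted p otherwise reached 0.691, 0.600, 0.631 and 0.679 for PSMB8, PSMB9, PSMD10 and PSME2. PSMG1 passed in 12 of 14, with adjusted p from 0.000578 to 0.222, and PSMC2 in 3, with adjusted p from 0.013 to 0.446.

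After the correction the median log2 fold change was -0.19 for the 20S core, against -0.47 before it, and 0.71 for the immunoproteasome, against 0.50. It was -0.60 for PSMG1 to PSMG4. The pairs of catalytic subunits are similar in length, with 1124 nt for PSMB8 and 1008.5 nt for PSMB5, 787 nt for PSMB9 and 861.5 nt for PSMB6, and 1218 nt for PSMB10 and 980.0 nt for PSMB7. The mean log2 ratio over the pairs, MDA231-BR minus MDA231-P, was 0.72 after the correction and 0.75 before it. Genes of similar length receive a similar correction, so these ratios could move only little and the correction is no check of them. The medians of the core and of PSMG1 to PSMG4 lay nearer to zero after it.

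**Figure D4:**
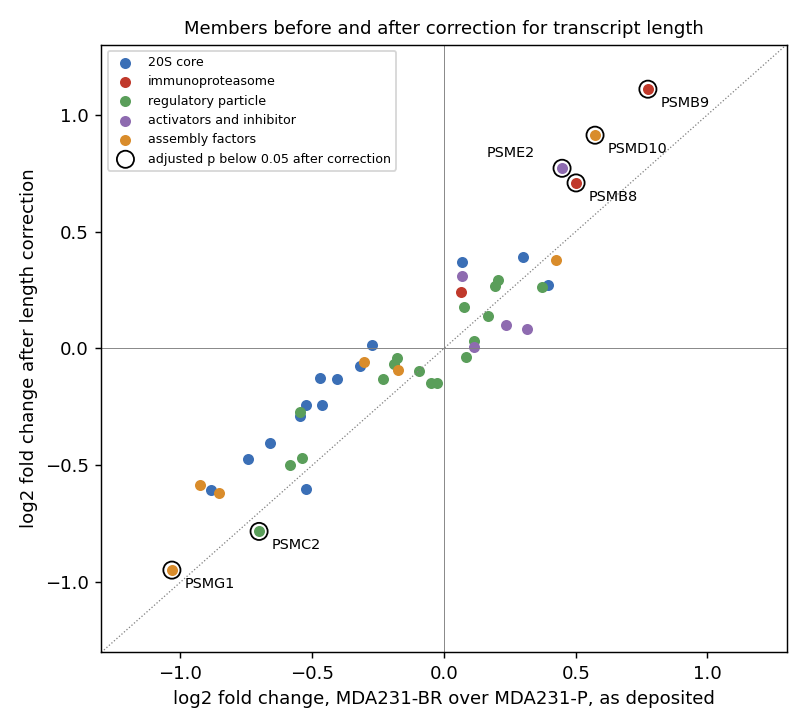
Log2 fold change of the 46 members, MDA231-BR over MDA231-P, as deposited (x axis) and after correction of each library for transcript length (y axis), coloured by role, with the diagonal dotted. Ringed points had an adjusted p below 0.05 after the correction: PSMB9, PSMD10, PSME2 and PSMB8 at the upper right, and PSMG1 and PSMC2 at the lower left.

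Genes that work beside the proteasome were described from lists. Over all tested genes, 8.61% were higher in MDA231-BR, 5.80% lower and 14.4% called in either direction. Of 13 proteasome parts and helpers with other names, 1 was lower and 12 did not pass, which is near the share of all genes. That gene was SEM1, a small subunit of the lid, with 1881 and 1207 reads in MDA231-BR and 2809.6 and 3633 in MDA231-P (-1.08 ± 0.282, adjusted p 0.0396 by limma). As in the core genes, MDA231-BR library B lay below library A. POMP, which completes the core together with PSMG1 and PSMG2, had 5364 and 3347 reads in MDA231-BR and 4434 and 5837 in MDA231-P, which overlap. None of 9 genes of the NFE2L1 axis passed. NFE2L1 itself had 7094 and 12402 reads in MDA231-BR and 6899 and 5684 in MDA231-P, above MDA231-P without overlap but with an adjusted p of 0.218 by limma. VCP, the segregase that extracts it from the membrane, had 12181 and 16822 reads in MDA231-BR and 14348 and 9967 in MDA231-P.

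Of 14 genes that supply ubiquitin or carry its conjugates, none passed, where 14.4% of all tested genes did. RPS27A, a ubiquitin precursor, had 12056 and 7839 reads in MDA231-BR and 13869 and 22254 in MDA231-P. Of 13 genes of class I peptide loading, which takes up the peptides that proteasomes make, 3 were higher, none was lower and 10 did not pass. Over all tested genes, 8.61% were higher and 5.80% lower. TAPBP, the chaperone that edits the peptide cargo, had 7811 and 12478 reads in MDA231-BR and 4385 and 3638 in MDA231-P (1.31 ± 0.276, adjusted p 0.0197 by limma). TAP2, a subunit of the peptide transporter, had 4692 and 6770.2 reads in MDA231-BR and 3055 and 2459 in MDA231-P (1.04 ± 0.26, adjusted p 0.0348 by limma), and the third was HLA-B. TAP1, which is known to share a bidirectional promoter with PSMB9, had 2172 and 2089 reads in MDA231-BR and 1915 and 2344 in MDA231-P, which overlap, so the 2 neighbours did not stand in the same order between the lines. Of 34 tested interferon-stimulated genes, 6 were higher and 28 did not pass, where 8.61% of all tested genes were higher. Their median log2 difference from MDA231-P was 0.04 in MDA231-BR library A and 1.98 in library B. OAS1, a sensor of double-stranded RNA, rose to 91.2 and 334 reads in MDA231-BR, against 1.71 and 7.76 in MDA231-P (5.17 ± 0.761, adjusted p 0.00477 by limma). Of 19 endoplasmic reticulum stress genes, CHAC1, a glutathione-degrading enzyme, was higher and 18 did not pass. This is no more than the 8.61% of all tested genes that were higher. Even so, 16 of the 19 had a positive log2 fold change, with a median of 0.65. Their median log2 difference from MDA231-P was 0.17 in MDA231-BR library A and 1.28 in library B.

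Several members share sequence with other rows. PSMA6 had 174 and 171 reads in MDA231-BR and 178 and 243 in MDA231-P, while 84.7% and 79.5% of the reads of PSMA6 and its pseudogenes PSMA6P1 and PSMA6P2 in MDA231-BR, and 83.9% and 84.5% in MDA231-P, stood in the pseudogene rows, so its level is uncertain. With those rows added, its log2 fold change was -0.44 instead of -0.27. For PSMC1 the pseudogene share was 16.1% to 18.4%, and for PSMD7, PSMD12 and PSME2 it was at most 8.13%, with the sign of the fold change unchanged in these 4. PSMA3-AS1, an RNA antisense to PSMA3, had 912 and 2249.7 reads in MDA231-BR and 735 and 718 in MDA231-P. The strand setting of the counting is not given in the sources used here, so reads of PSMA3 and of this partner cannot be told apart, and the same holds for PSMB8 and PSMB8-AS1.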

How the data were processed

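RNA-seq of 2 MDA231-BR and 2 MDA231-P libraries was analysed. GRCh37, HISAT2, featureCounts and DESeq2 appear, without versions, in the submitters' processing notes. Annotation, library kit and strand setting: not given in the sources used here. The deposited values were taken as a normalized read signal, judged from the values themselves. Each column holds whole multiples of a single step, and dividing by it gave whole reads for 100% of values within 0.01 reads. A column names only its cell line. The 67 unnamed rows (0.0310% to 0.0369% of reads) were left out.

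Genes were kept by filterByExpr (minimum count 10, minimum total 15). limma-trend was fitted to log2(value + 1) over 14424 genes, with Benjamini-Hochberg adjustment and a threshold of 0.05; fold changes on this scale understate changes of low genes. edgeR, DESeq2 and limma-voom were run on recovered reads. The alternatives also covered scaling, filter, pseudocount, each library left out and a loess correction for transcript length (median protein-coding transcript, GENCODE 29 by symbol, all 46 members matched). Software was DESeq2 1.42.0, edgeR 4.0.16 and limma 3.58.1 in R 4.3.3, with Python 3.11.15 for tables. The test was tried on simulated data. Named were the catalytic subunits, members past the threshold, and in each role the most abundant member and that with the largest change, and in other lists up to 2 passing genes in each direction or the most abundant; further genes were chosen after their values were seen. The members and lists were chosen with earlier results of these data known.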

Additional observations from a re-analysis of the deposited data

How the results depend on the processing

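The count of members higher in MDA231-BR, 0 as reported, was 0 to 3 when each library was left out in turn and 4 after the length correction. The count of members lower, 1 as reported, was 0 to 14 with a library left out, 6 with DESeq2 and 2 after the length correction. Over all tested genes, 2079 differed, and 421 to 5257 did with a library left out. The median log2 fold change of the members ran from -0.26 to 0.00, and the mean log2 ratio of the catalytic pairs from 0.65 to 0.85, over the alternatives run. Among the members that changed sign, all had an adjusted p above the threshold as reported, and PSMB5 alone passed it under an alternative, at -0.78 without MDA231-BR library A (adjusted p 0.0237 by limma). After the length correction PSMA6 stood at 0.014 and PSMD11 at -0.036. With each library left out the log2 fold change ran as follows: -0.33 to 0.14 for PSMD14, -0.00034 to 0.23 for PSMD2, -0.028 to 0.42 for PSMD13, -0.78 to 0.15 for PSMB5, -0.10 to 0.24 for PSME1, -0.10 to 0.0016 for PSMC1, -0.12 to 0.25 for PSMB10, -0.26 to 0.40 for PSMB6, -0.11 to 0.27 for PSMD11, -0.094 to 0.32 for PSME3, -0.070 to 0.020 for PSMD12 and -0.068 to 0.22 for PSMC4. The cause of these shifts was not tested. No paired analysis was possible because the columns carry no replicate number. With 2 libraries a line, moderate changes may be missed, and for PSMB10, at 47 to 69 reads, counting error adds to this.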
